A study of Mus musculus with 6 samples.

Results

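The laminin chains and nidogens measured here are the 9 genes Lama1, Lama3, Lama5, Lamb1, Lamb2, Lamb3, Lamc1, Nid1 and Nid2, taken by symbol from the 55291 gene symbols of the deposited table. They were chosen by name, with the differences between Calr KO and control cells in these same libraries already known. Those differences are therefore given as a description and support no further statement. RNA was sequenced from LLC cells, the Lewis lung carcinoma line derived from a mouse lung tumour. The Calr KO cells received Cas9 and a guide RNA against Calr, which encodes the calcium-binding chaperone calreticulin of the endoplasmic reticulum (ER). The control cells, labelled as wild type, received Cas9 with a control guide. Plasmids were delivered transiently, and the cells of both groups were kept for 10 days, seeded into 3 wells and collected after 48 hours without further treatment, and no isolation of clones is described. The 3 libraries of a group are thus wells of 1 population, and the spread between them does not measure the spread between independent knockouts.

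Laminins are cross-shaped heterotrimers of basement membranes, the sheets of matrix beneath epithelia and around vessels and muscle. An alpha, a beta and a gamma chain are glycosylated in the ER and wound together there in a coiled coil, and a dimer of beta and gamma chain normally leaves the cell only after an alpha chain has joined it. Each trimer is named by the numbers of its 3 chains, so that laminin-511 holds the products of Lama5, Lamb1 and Lamc1. Nidogens bind the Lamc1 chain and link laminin to the collagen IV network. In the lung, laminins underlie the airway and alveolar epithelium, and tumour cells often make their own.

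Calr mRNA was lower in the cells that carried its guide. The Calr KO libraries held 4467, 4216 and 4453 normalised counts and the controls 10711, 10202 and 11047, so the groups did not overlap. Normalised counts are the authors' gene counts scaled with DESeq2 to make libraries comparable, and differences below are of log2(normalised counts + 1), with intervals from limma, a linear model fitted across all tested genes. The level was 2.43-fold lower, and transcript remained in every library. The libraries summed to between 14040692 and 14099985 normalised counts, an estimated 13571131 to 14919040 reads each. Markers only in part matched an epithelial lung line. Krt8, a keratin of simple epithelia, had 4472 ± 143 normalised counts in control cells (SD, n = 3), and Krt18 had 279 ± 21.6. Epcam and Krt19, in contrast, were listed at 0 in all libraries, and Cdh1, the epithelial cadherin, reached at most 5.0. The lung lineage factor Nkx2-1 and the lung secretory genes Sftpc and Scgb1a1 were listed at 0. The other lung markers, Sftpb and Foxj1, reached at most 2.89 and 5.19 normalised counts in any library. The 4 mesenchymal markers summed to between 40331 and 42745 in control and between 37030 and 39255 in Calr KO libraries. Vim made up most of these sums. Zeb1 had 1083 ± 76.7 and Twist1 781 ± 23.1 normalised counts in control, whereas Cdh2 reached at most 0.96 in any library. The 4 endothelial markers summed to between 37.3 and 45.2 in control and between 46.1 and 60.3 in Calr KO. The 4 macrophage markers summed to between 69.6 and 92.3 and between 54.7 and 111.9, with Adgre1 at 0 throughout, and the 4 fibroblast markers to between 1728 and 2193 and between 1888 and 2198. Pdgfra made up most of the fibroblast sum, and Dcn, which encodes the matrix proteoglycan decorin, had 15.5 ± 3.03 normalised counts in control and 31.9 ± 3.49 in Calr KO libraries, which did not overlap (limma adjusted p = 0.312). Lymphocyte markers reached at most 3.15 in any library. The mitochondrial share of the counts was 2.78% to 2.80% in control and 2.89% to 2.97% in Calr KO libraries. The part of these marker and mitochondrial differences in the results below was not tested.

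Among the laminin chains, Lama3 mRNA was higher and Lamb1 mRNA lower in Calr KO cells. Lama3 and Lamb1 were the 2 of 7 tested members that passed an adjusted p of 0.05 in limma's test across all 13199 tested genes, of which 0.280% passed in either direction, 0.197% higher and 0.0833% lower in Calr KO. The groups did not overlap in 3 of the 7, Lama3, Lama5 and Lamb1, against 14.8% of all tested genes, 7.57% with Calr KO higher and 7.28% with Calr KO lower. Because the members were chosen from this contrast, nothing is read from these shares. The median log2 change of the 7 was 0.07, against 0.00036 over all tested genes. Lamb3 and Nid2 had means under 10 normalised counts and were not tested. In bulk RNA, fewer cells that express a gene and less RNA per cell cannot be told apart.

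Lama3 encodes the alpha chain of laminins in epithelial attachment, among them laminin-332 of hemidesmosomes. The gene (ENSMUSG00000024421.16, protein coding) lies on the plus strand of chromosome 18, positions 12333819 to 12583013 on GRCm38 in GENCODE M21. The control libraries held 536, 572 and 612 normalised counts and the Calr KO libraries 1520, 1501 and 1439. The lowest Calr KO library stood above the highest control by more than the whole spread within either group. The difference was 1.38 on the log2 scale (95% interval 1.23 to 1.52), a 2.59-fold rise. The annotation holds 2 coding transcripts of Lama3, of 10.548 and 5.551 kb, and these gene totals do not tell them apart.

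Lama5 encodes the alpha chain of laminin-511 and laminin-521, the main laminins of mature epithelia and vessels. It lies on the minus strand of chromosome 2, positions 180176373 to 180225859. Its control libraries held 9339, 9692 and 9448 normalised counts and its Calr KO libraries 9924, 10230 and 9728. The highest control lay just under the lowest Calr KO library. The difference was 0.07 on the log2 scale (95% interval 0.0032 to 0.14) and did not pass over all genes.

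Lama1, the alpha chain of laminin-111 in early embryos, was near the lower limit of the test. It is on the plus strand of chromosome 17, positions 67697259 to 67822647. Controls held 11.4, 11.2 and 40.3 normalised counts and Calr KO libraries 38.1, 13.7 and 13.8. One library in each group stood about as high as its counterpart in the other group, and the range of the controls contained that of the Calr KO libraries. The difference was 0.15 (95% interval -1.11 to 1.41) on the log2 scale, and it turned to -0.32 without Calr KO replicate 1 and was 0.73 once control replicate 3 was left out.

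Lamb1 encodes the most widely used beta chain, shared by laminin-111, laminin-311 and laminin-511. The gene (ENSMUSG00000002900.16, protein coding) lies on the plus strand of chromosome 12, positions 31265234 to 31329644. The control libraries held 10786, 11069 and 11142 normalised counts and the Calr KO libraries 8226, 8129 and 7763. The groups were separated by a gap wider than the spread within either. Lamb1 fell by 0.45 on the log2 scale (95% interval -0.52 to -0.38), 1.37-fold lower. When limma used 1 prior variance for genes of every level, the adjusted p of Lamb1 was 0.147 and the call was lost. In that fit 2 of the 13199 genes (0.0152%) passed, against 37 with the prior that follows the level.

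Lamb2 replaces Lamb1 in laminins of the kidney filter and the neuromuscular junction. It lies on the plus strand of chromosome 9, positions 108479736 to 108490530. Controls held 720, 1173 and 731 normalised counts and Calr KO libraries 798, 702 and 709. Control replicate 2 stood apart, and the other control libraries lay among the Calr KO libraries. The difference was -0.21 (95% interval -0.59 to 0.16) on the log2 scale with all libraries, and 0.02 without control replicate 2.

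Lamb3, the beta chain of laminin-332, was near 0 in every library. On the plus strand of chromosome 1, positions 193207699 to 193343878, it held 0.96, 3.97 and 0 normalised counts in control and 1.81, 2.42 and 1.00 in Calr KO cells. These are a few reads per library, too few to compare the groups.

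Lamc1 encodes the common gamma chain, which also carries the nidogen-binding site. It lies on the minus strand of chromosome 1, positions 153218922 to 153332786. Controls held 9597, 10284 and 9416 normalised counts and Calr KO libraries 9241, 9741 and 9692. The groups overlapped, with a difference of -0.03 (95% interval -0.12 to 0.06) on the log2 scale.

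Of the nidogens, Nid1 was abundant and Nid2 was not. Nid1 lies on the plus strand of chromosome 13, positions 13437551 to 13512269. Its control libraries held 6493, 6744 and 6568 normalised counts and its Calr KO libraries 7222, 6890 and 6672. The lowest Calr KO library lay within the control range, and the difference was 0.07 (95% interval -0.01 to 0.15) on the log2 scale. Nid2, its paralog on chromosome 14, positions 19751265 to 19811787, was listed at 0 in all 3 controls and at 1.03 in 1 Calr KO library and 0 in the other two.

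**Figure D1:**
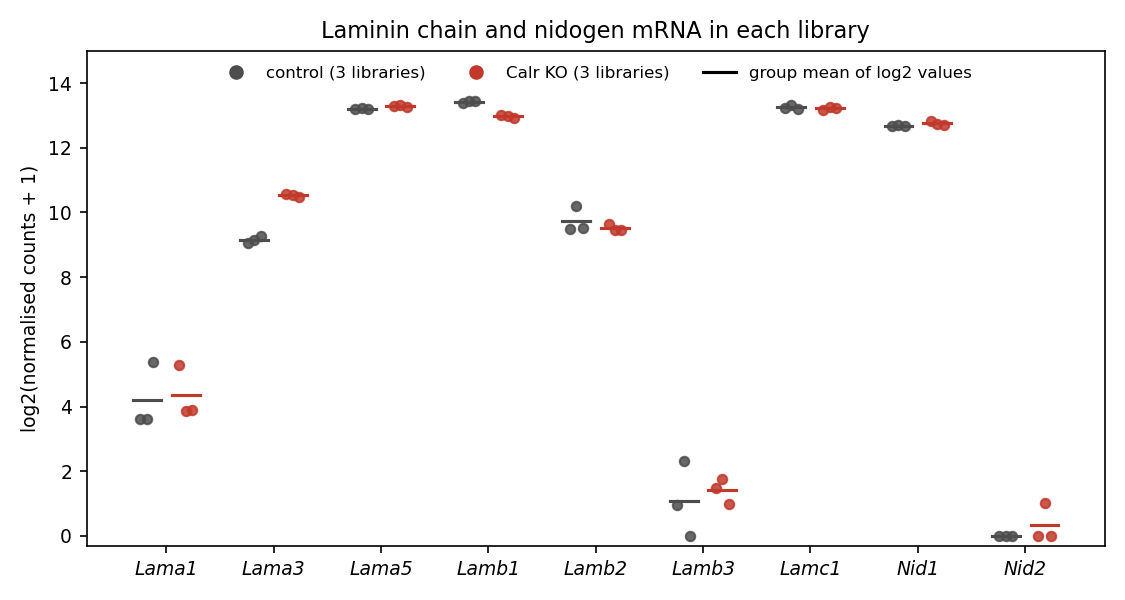
Values of the 9 genes in each library, as log2(normalised counts + 1); points are libraries (3 control, 3 Calr KO) and bars the group means of the log2 values. Lama3 is higher and Lamb1 lower in the Calr KO libraries than in any control, while Lamb3 and Nid2 lie near 0 in both groups.

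The 3 promoters below are shown because Lamb1 fell, whereas Lama5 and Nid1, also among the 4 members of highest level per kb in control, did not pass. No promoter of Lama3, the member with the largest difference, is shown. Sequences are from RefSeq on GRCm38.p6, where the promoter table matched 5 of the 9 members in 6 windows. Each run is 5′ to 3′ on the gene's strand and stops before the first annotated transcript base. Lamb1 is chr12:31265043-31265233 (plus strand, 191 bases, 63.9% G and C), Lama5 is chr2:180225860-180226109 (minus strand, 250 bases, 72.4%) and Nid1 is chr13:13437352-13437550 (plus strand, 199 bases, 63.8%). Capitals mark matches on either strand to CCAAT, to CCACG, to GGGCGG or to TATAAA.
Lamb1: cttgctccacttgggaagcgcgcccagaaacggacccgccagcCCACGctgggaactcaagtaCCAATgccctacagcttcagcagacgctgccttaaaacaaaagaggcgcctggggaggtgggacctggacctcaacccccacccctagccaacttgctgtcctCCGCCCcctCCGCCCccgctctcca
Lama5: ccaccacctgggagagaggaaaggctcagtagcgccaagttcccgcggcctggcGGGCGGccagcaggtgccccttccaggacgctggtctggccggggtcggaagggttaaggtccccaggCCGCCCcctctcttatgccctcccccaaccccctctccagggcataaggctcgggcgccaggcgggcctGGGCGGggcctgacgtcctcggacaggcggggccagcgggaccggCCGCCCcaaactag
Nid1: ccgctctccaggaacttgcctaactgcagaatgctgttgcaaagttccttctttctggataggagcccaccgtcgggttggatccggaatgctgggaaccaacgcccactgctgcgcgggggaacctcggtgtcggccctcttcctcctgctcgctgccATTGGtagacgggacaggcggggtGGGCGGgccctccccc

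Upstream of Lamb1, a CCACG match, the core of the ER stress element that many chaperone genes carry, spans bases 207 to 203 before the RefSeq start, and a CCAAT match spans bases 187 to 183. A pair of GGGCGG matches, the GC box, lies on the other strand at bases 84 to 79 and 75 to 70. The Lama5 stretch has 4 GC boxes and neither of the other elements. The Nid1 stretch has 1 CCAAT match and 1 GC box. Of the 6 windows of the members, 2 hold CCACG, that of Lamb1 and that of Lamb3, at bases 30 to 26 on the other strand. Among the 32851 promoter windows of the table, 33.8% hold CCAAT in the 250 bases before the start, 28.3% hold CCACG, 32.7% hold GGGCGG and 12.4% hold TATAAA. The full ER stress element, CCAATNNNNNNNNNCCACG, which contains both shorter motifs, is in 0.113% of all windows and in 0 of the 6 windows of the members, which also hold 0 TATAAA matches. These matches are descriptions of letters and not measured binding sites.

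Levels of different genes were compared only per length, as normalised counts per kb of the longest coding transcript. In control cells Lamb1 was the highest of the members at 1902 ± 32.5 per kb (SD, n = 3), above 96.8% of the tested genes with a known length. Lamc1 followed at 1281 ± 60.1, Nid1 at 1084 ± 21.1 and Lama5 at 834 ± 15.9 per kb. These 4 were each above at least 91.4% of tested genes. Lamb2 stood at 155 ± 45.9 per kb, close to the median tested gene at 131, and Lama3 at 54.3 ± 3.59, above 30.6% of tested genes. Lama1 was at 2.20 ± 1.76 per kb. In each of the 6 neighbouring pairs of this order the control libraries did not overlap. The order of Lamb1 and Lamc1 rests on the length taken, since per kb of merged exons Lamc1 came first at 1181 and Lamb1 second at 1109. Outside the members, Lamc3 had 1.29 ± 0.64 per kb in control and Lama2 0.22 ± 0.31, and Lama4 was listed at 0 in every library. These 3 were too low to be tested.

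**Figure D2:**
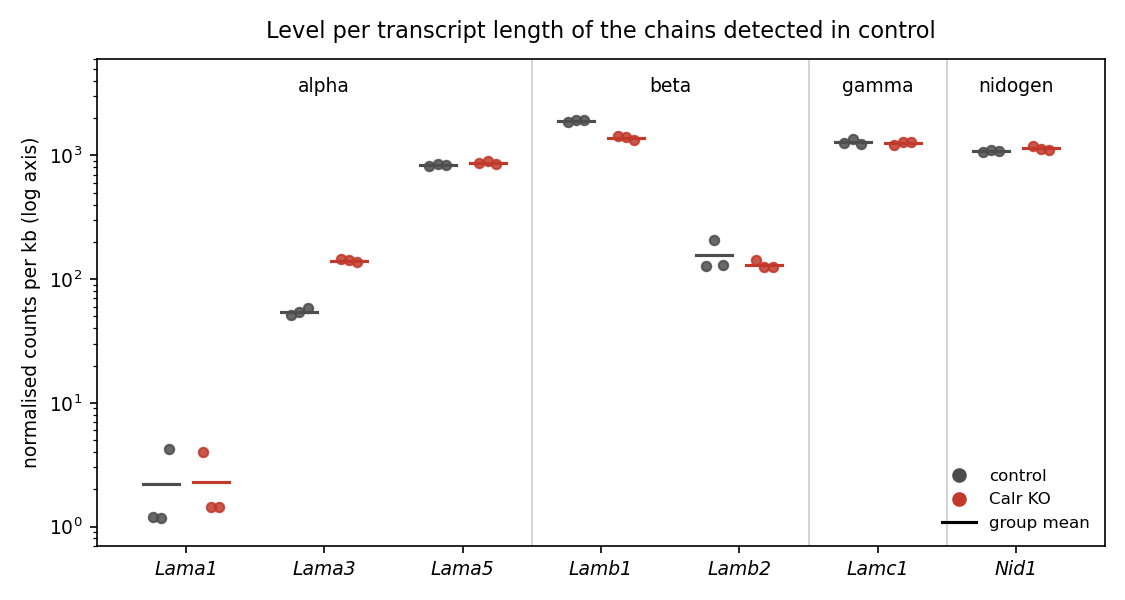
Normalised counts per kb of the longest coding transcript on a log axis, for 6 laminin chains detected in control and Nid1, grouped by role; points are libraries and bars group means. Lamb1, Lamc1, Nid1 and Lama5 are the highest in both groups, all above 820 per kb in every library, and Lama3 moves from 54.3 to 141 per kb, next to Lamb2.

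A trimer needs a transcript for each of its chains. Taking a chain as detected where every control library held at least 10 normalised counts, 6 of 13 described trimers that were considered had all 3 chains, namely laminin-111, laminin-121, laminin-311, laminin-321, laminin-511 and laminin-521. For laminin-511 the scarcest transcript was that of Lama5, at 834 per kb in control and 875 in Calr KO cells. For laminin-521 it was Lamb2, at 155 and 131 per kb, and with the median coding transcript as length it was Lama5 instead. Laminin-311 was limited by Lama3 in both groups, at 54.3 and 141 per kb. For laminin-321 the scarcest chain was Lama3 in control, at 54.3 per kb, and Lamb2 in Calr KO, at 131 per kb, where the libraries of Lama3 (136 to 144) and Lamb2 (125 to 142) overlapped. For laminin-111 and laminin-121 it was Lama1, at 2.20 per kb in control and 2.29 in Calr KO cells. The other 7 lacked a detected Lama2, Lama4 or Lamc3. Transcript levels show which trimers could be supplied and measure neither assembly nor secretion.

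The balance among the chains stood apart between the groups. Lama3 made up 5.82%, 5.98% and 6.50% of the summed alpha chain level per kb in the controls and 14.1%, 13.7% and 13.8% in the Calr KO libraries. With the shorter Lama3 transcript as its length, the shares were 11.0% ± 0.61 and 23.4% ± 0.38 (SD, n = 3). Lama5 held 93.6% ± 0.53 of the alpha level in control and 85.9% ± 0.39 in Calr KO cells. Its own level did not fall, at 834 per kb in control and 875 in Calr KO. The whole alpha level was 890 ± 16.9 per kb in control and 1018 ± 24.9 in Calr KO. Lamb1 relative to Lamc1, as the ratio of levels per kb, was 1.48, 1.42 and 1.56 in control and 1.17, 1.10 and 1.06 in Calr KO libraries. The summed beta level per kb was 1.61 ± 0.05 times that of Lamc1 in control and 1.21 ± 0.07 times in Calr KO. The alpha level was 0.70 ± 0.03 and 0.81 ± 0.03 times that of Lamc1. The size of these ratios to Lamc1 rests on the length taken. Per kb of merged exons, Lamc1 stood at 1181 in control, above Lamb1 at 1109, with Lamb2 at 144. The groups did not overlap in any of these balances. Each of them contains Lama3 or Lamb1, already seen to differ, so this separation adds no independent result. The ratio of Lama5 to Lamc1 contains neither of those genes. It was 0.651, 0.631 and 0.6716 in control and 0.719, 0.703 and 0.6718 in Calr KO libraries. The highest control thus lay only just under the lowest Calr KO library. Within the beta chains, Lamb1 held 92.5% ± 2.01 in control and 91.4% ± 0.45 in Calr KO cells, which overlapped. The 9 members together took 0.273% ± 0.0081 of the counts in control and 0.261% ± 0.0048 in Calr KO cells. This share, which includes Lama3 and Lamb1, did not overlap, with the lowest control at 0.266% and the highest Calr KO library at 0.265%. These sums and ratios were not tested.

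**Figure D3:**
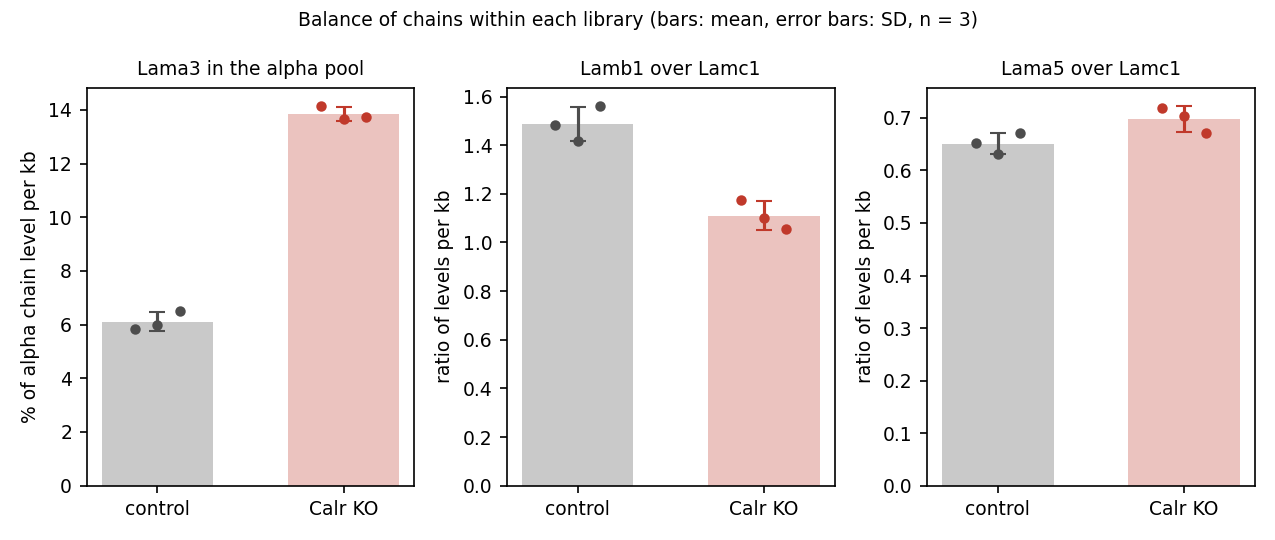
Left, Lama3 as a percentage of the summed alpha chain level per kb of the longest coding transcript. Middle and right, ratios of these levels of Lamb1 and Lama5 to Lamc1, whose size rests on the length taken. In the right panel the highest control (0.6716) and the lowest Calr KO library (0.6718) nearly coincide. Points are libraries, bars means and error bars SD (n = 3); Lama3 goes from 6.10% to 13.8% and the Lamb1 ratio from 1.49 to 1.11 between control and Calr KO.

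Laminin receptors are integrins, dystroglycan and cell surface proteoglycans that bind laminin. Of 13 listed receptors and partners 12 were tested, and 0 rose or fell over all genes in limma. At an unadjusted p under 0.05 there were 0 higher and 3 lower, Itga7, Itgb1 and Dag1. Over all 13199 tested genes 4.60% were higher and 4.28% lower at that threshold, and the counts at an unadjusted p in this and the following lists stand against these shares. The list's median was -0.06. Itgb1, the beta subunit shared by most laminin-binding integrins, stood at 7708 ± 166 normalised counts (Calr KO) against 8167 ± 131 (control) (log2 difference -0.08, 95% interval -0.15 to -0.02, limma adjusted p = 0.463). Itga6, its alpha subunit in laminin binding, had 4896 ± 301 and 4848 ± 46.2 (0.01, 95% interval -0.09 to 0.11). Itga7, the muscle laminin receptor, and Dag1, which encodes dystroglycan, had differences of -0.24 (95% interval -0.38 to -0.10) and -0.11 (95% interval -0.19 to -0.03). Genes named for an unadjusted p, here and in the lists that follow, were chosen after their values were seen. Itgb4, the hemidesmosome integrin subunit, also named after its values were seen, held 82.1, 20.0 and 19.7 normalised counts in control and 11.9, 14.4 and 17.3 in Calr KO libraries, so its difference of -1.11 (limma adjusted p = 0.580) came with 1 high control library.

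Hemidesmosomes anchor epithelial cells to laminin-332. Of 6 listed genes 4 were tested and 0 passed in limma, with 1 higher at an unadjusted p under 0.05, Plec. The linkers Dst and Plec, which many cell types use, had 17355 ± 630 and 14853 ± 516 normalised counts in control and 17350 ± 411 and 15782 ± 200 in Calr KO cells. The basal keratins Krt5 and Krt14, partners of these linkers in skin, were listed at 0 in every library.

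The rest of the basement membrane was also given by a list of 22 genes, of which 13 were tested and 0 passed in limma, with 1 higher (Sparc) and 3 lower (Col4a1, Hspg2 and Tinagl1) at an unadjusted p under 0.05. The list's median was -0.000084 on the log2 scale. Hspg2, the proteoglycan perlecan, had 21602 ± 762 in Calr KO and 23018 ± 377 in control cells (-0.09, 95% interval -0.16 to -0.03, limma adjusted p = 0.377). Col4a1, a chain of the collagen IV network that nidogens join to laminin, had 12033 ± 342 and 12604 ± 163 (-0.07, 95% interval -0.13 to -0.0045, limma adjusted p = 0.532).

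**Figure D4:**
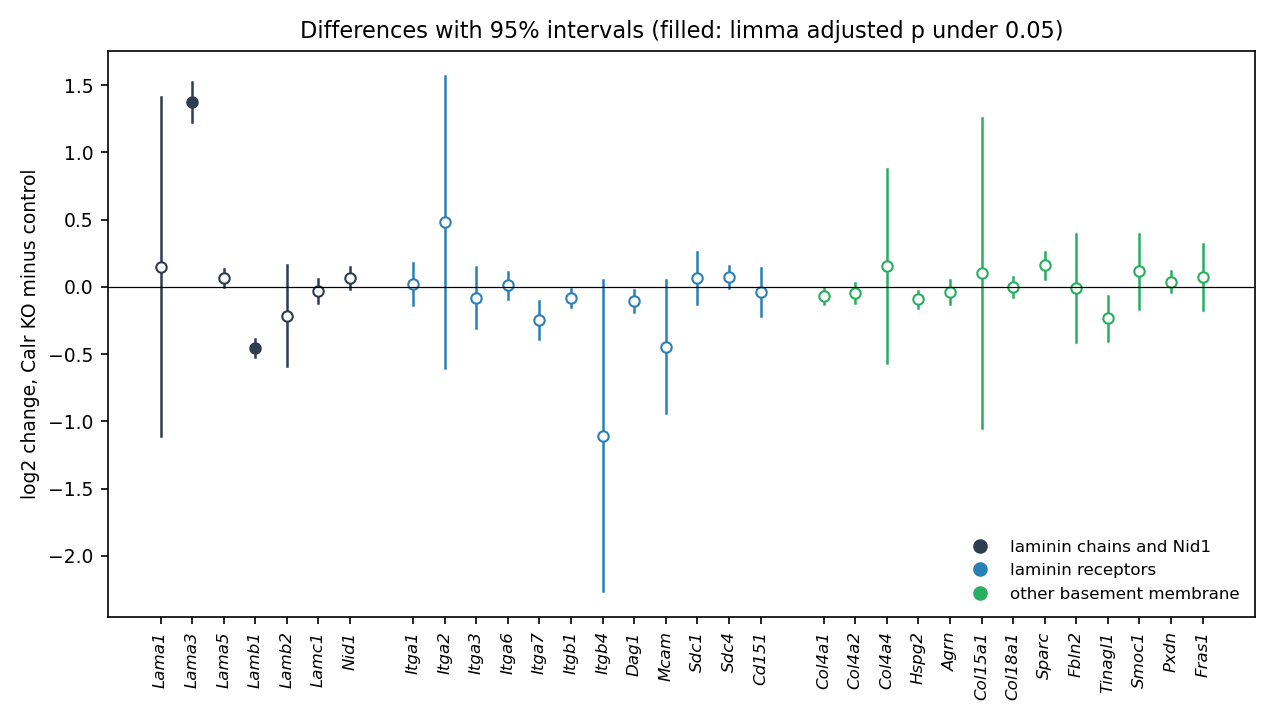
Log2 difference of Calr KO minus control with 95% intervals from limma for the 7 tested members, 12 laminin receptors and 13 other basement membrane genes; filled points passed an adjusted p of 0.05. Lama3 (1.38) and Lamb1 (-0.45) are the filled points, and wide intervals belong to genes of low level such as Lama1, Itga2 and Itgb4.

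Proteases that trim laminin chains or nidogens gave 0 calls among 7 tested of 12 listed genes in limma, with 2 higher (Mmp2 and Mmp3) and 0 lower at an unadjusted p under 0.05. Bmp1, which cleaves chains of laminin-332, stood at 2261 ± 106 normalised counts (Calr KO) against 2278 ± 7.01 (control), and Mmp3, a stromelysin, 1608 ± 13.1 and 1445 ± 93.7 (0.16, 95% interval 0.03 to 0.28, limma adjusted p = 0.472). Netrins and related genes, which share the laminin N-terminal domain, gave 0 calls among 4 tested of 7 listed, with 0 at an unadjusted p under 0.05. Ntn1 had 1615 ± 44.3 and 1621 ± 64.1, and Ntn4, whose protein binds laminin gamma chains, 147 ± 40.6 and 152 ± 35.1. Of 14 genes that build the laminin-binding glycan of dystroglycan 13 were tested and 0 passed in limma, with 0 higher and 2 lower (Pomt1 and B4gat1) at an unadjusted p under 0.05. B3galnt2 and Rxylt1, those of highest mean count, had differences of 0.24 (95% interval -0.13 to 0.61) and -0.03 (95% interval -0.20 to 0.13).

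The genes whose log2 values followed Lama3 most closely over the 6 libraries, among 10912 genes with a mean of at least 50, were Mtf2, a Polycomb-associated factor (Pearson r 0.993), Pclaf, a PCNA-binding replication factor (0.992), and Scara3, a scavenger receptor family gene (0.991). Their differences were 0.26, 0.32 and 0.26 on the log2 scale, against 1.38 for Lama3. For Lamb1 they were the chromatin protein gene Hmga1 (0.994), Tcp11l2 (0.992) and Espn, which encodes an actin-bundling protein (0.990), with differences of -0.32, -0.19 and -0.63. These correlations are over 3 libraries of each group and mostly follow the difference between the groups, so they are descriptions only.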

How the data were processed

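Values are the signal that the authors deposited, per the labels DESeq2-normalised gene counts. STAR 2.6.1d, DESeq2 1.34.0, Salmon 0.14.1 and the mm10 build appear in the submitters' processing notes, with no role stated; how strand was handled and which annotation was used are not given in the sources used here. For each library, the worth of 1 read, the most frequent value between 0.5 and 1.5, lay between 0.945 and 1.04. Of values under 1.5 reads, 79.4% to 82.9% were whole multiples of it within 0.02, and of values of 100 to 1000 reads 3.42% to 4.15%. The worth of 1 read is a rounded value, and at higher counts its rounding alone can exceed that tolerance. The higher range therefore cannot show whether counts were whole. No count model was run on these normalised values. Genes with a mean of at least 10 (13199) were tested on the log2(value + 1) scale in limma 3.58.1 (R 4.3.3). The test was two-sided with a mean-dependent variance prior, and p-values were adjusted by Benjamini-Hochberg over all of these genes, with a threshold of 0.05. The method was tested on simulated data. Fold changes on this scale understate those of low genes. Lengths and coordinates are from GENCODE M21 (GRCm38), which covered 98.4% of tested genes. Outside the members, up to 4 called genes of each list were named, or the 2 of highest mean where none passed. The members and lists were chosen with earlier results of these data known. The p-values measure only the spread between wells. Alternatives were other pseudocounts, filters, scalings, variance priors, weights, lengths, detection minima, a block for the replicate number, and fits without each library.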

Additional observations from a re-analysis of the deposited data

How the results depend on the processing

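The call of Lama3 held in all 17 alternative fits, with a log2 difference between 1.33 and 1.42, and that of Lamb1 in 16, between -0.47 and -0.43. With a single variance prior 1 member passed, Lama3, and 2 genes in all, against 37 in the fit reported. No list of other genes gained a call in any of the 17 fits. The signs of the differences of Lama1, Lamb2 and Lamc1 turned in 3, 1 and 1 of their fits, each time without a single library. With the replicate number as a block 2 members passed, as without it, and the limma adjusted p was 0.00029 for Lama3 and 0.0023 for Lamb1. Libraries with the same number did not deviate together (r -0.06, -0.0050 and 0.02 across genes). No shared effect of the number was thus seen, which does not settle whether the samples were paired. With at least 100 normalised counts in every control as the minimum, 4 trimers had all 3 chains (laminin-311, laminin-321, laminin-511 and laminin-521), and with at least 1 there were 7, with laminin-523 added. With the median coding transcript as length, which for Lamb2 is a fragment of 0.409 kb, Lamb2 moved to the second place of the order at 2139 per kb, and Lama5 replaced it as the scarcest chain of laminin-521. Genes at a few normalised counts, such as Lamb3 and Nid2, cannot be compared at this depth.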

Other observations

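Some members share exon bases with a gene on the other strand, and reads of such pairs cannot be told apart where strand was not kept. Lama3 shares 197 bases with the antisense gene Gm29200, which held at most 2.05 normalised counts in any library. Nid1 shares 143 bases with Gm48682, listed at 0 in all libraries. Nid2 shares 437 bases with the coding gene Rtraf, which held 900 to 1015 normalised counts in Calr KO and 967 to 1003 in control libraries, while Nid2 itself reached 1.03 at most. Lamb1, Lamb2, Lamc1, Lama1, Lama5 and Lamb3 share no exon base with another annotated gene.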
